A study of Mus musculus with 4 samples.

Results

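The genes that encode the proteasome and the proteins that open, inhibit or assemble it were followed in 4 RNA-seq libraries of mouse embryonic stem cells (mESCs). Members were the protein-coding rows of the count table whose symbol begins with Psma to Psmg followed by a digit. That rule took 52 of 37620 rows, with 50 distinct symbols: 8 Psma, 12 Psmb, 7 Psmc, 15 Psmd, 5 Psme, 1 Psmf and 4 Psmg rows. The rule also took Psmc3ip, a meiotic recombination factor named for its binding to a proteasome ATPase, and Psme2b-ps, which the annotation lists as protein coding despite its name. Of the other rows, the 4 Psmg genes, Psmd5, Psmd9 and Psmd10 encode assembly chaperones and Psmf1 an inhibitor. The rest encode subunits or activators. A further 3 matches annotated as pseudogenes were left out, with at most 4 counts in any library.

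Both groups were made from mESCs in which the endogenous CTCF carries an auxin-inducible degron tag and was degraded with auxin. WT_CTCF cells carried a vector encoding wild-type CTCF, and MUT_CTCF cells carried one changed at T668, the position at which the sugar O-GlcNAc is attached to this chromatin architecture protein. Each line was a clone picked for exogenous CTCF near the endogenous level and grown with serum and LIF on gelatin, and 2 libraries were made per line, described as biological replicates. The line picked and the change at T668 cannot be told apart in this design. The p-values therefore measure the spread between these libraries.

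The libraries held 40524694 to 40977464 counts. Ctcf itself had 18302 and 18669 normalized counts in WT_CTCF and 18789.9 and 19325 in MUT_CTCF, and these counts do not separate the wild-type from the changed transcript. All 9 pluripotency markers were above 1 CPM (count scaled to the library total), with summed levels of 6229 to 6319 CPM. Among them, with edgeR's quasi-likelihood test, Utf1 fell by 0.21 (adjusted p = 0.00499), Dppa5a fell by 0.099 (adjusted p = 0.0157) and Sox2 rose by 0.095 (adjusted p = 0.0358), on the log2 scale. Fibroblast, primitive endoderm, and lymphoid and myeloid markers summed to at most 91.3 CPM in any library, with Lum at 0. None of their genes had an adjusted p under 0.05. Col4a1 was the highest primitive endoderm gene, at 2795 to 3012 normalized counts, and such a sum hides lower genes. Gata6 was at 0.95 (adjusted p = 0.0733, edgeR) and Sox17 at 0.75 (adjusted p = 0.259, edgeR) on the log2 scale. Dab2 at -0.21 and Col4a1 at -0.040 were below 0. The summed 2-cell-like markers were 47.6 and 47.3 CPM in WT_CTCF and 37.7 and 32.9 CPM in MUT_CTCF. Of the 5 tested, Zscan4d and Gm5662 fell by 0.53 and 0.46 (adjusted p = 0.0027 and 0.0244, edgeR) and 0 rose. Over all tested genes 1.61% fell. The part of these marker differences in the results that follow was not tested.

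The proteasome is the large protease that degrades proteins tagged with ubiquitin. Its 20S core is a barrel of alpha rings, which gate entry, and beta rings, which hold the protease sites. The 19S cap has a base of ATPases that unfold the substrate and a set of non-ATPase subunits that bind ubiquitin and remove it. Other activators can take the place of the cap, and dedicated chaperones assemble core and cap. Embryonic stem cells are known for high proteasome activity. Transcription of the subunit genes is known to be raised together by NFE2L1 when proteasome capacity falls short.

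The start-site regions of the members that fell are shown first, because these genes were the ones that passed the test. RefSeq promoter windows (250 bases before to 50 after the start, build GRCm38.p6) were at hand for 42 member genes, and among the 6 that fell for Psma5, Psmb4, Psmc4 and Psme4. They lie at chr3:108256676-108256975 on the plus strand for Psma5, chr3:94886909-94887208 on the minus strand for Psmb4, chr7:28050043-28050342 on the minus strand for Psmc4 and chr11:30771525-30771824 on the plus strand for Psme4. Capitals mark matches to the searched motifs, read 5′ to 3′ on the strand of the gene.
Psma5: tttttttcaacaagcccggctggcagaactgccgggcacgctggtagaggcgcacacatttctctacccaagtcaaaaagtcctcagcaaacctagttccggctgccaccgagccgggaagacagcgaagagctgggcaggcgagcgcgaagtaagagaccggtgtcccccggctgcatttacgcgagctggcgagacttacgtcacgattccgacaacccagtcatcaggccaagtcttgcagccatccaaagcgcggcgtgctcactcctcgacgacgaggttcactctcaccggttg
Psmb4: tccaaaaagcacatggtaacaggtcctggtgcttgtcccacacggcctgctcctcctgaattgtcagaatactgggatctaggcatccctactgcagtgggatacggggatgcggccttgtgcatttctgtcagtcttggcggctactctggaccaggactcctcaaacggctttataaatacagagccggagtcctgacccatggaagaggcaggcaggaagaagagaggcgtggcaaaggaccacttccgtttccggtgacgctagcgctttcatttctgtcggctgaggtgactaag
Psmc4: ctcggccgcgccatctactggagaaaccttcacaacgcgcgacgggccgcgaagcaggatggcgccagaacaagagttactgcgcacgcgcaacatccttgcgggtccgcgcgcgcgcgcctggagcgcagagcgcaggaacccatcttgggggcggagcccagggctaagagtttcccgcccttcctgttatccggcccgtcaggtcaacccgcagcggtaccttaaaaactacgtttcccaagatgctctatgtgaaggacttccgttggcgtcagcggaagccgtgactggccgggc
Psme4: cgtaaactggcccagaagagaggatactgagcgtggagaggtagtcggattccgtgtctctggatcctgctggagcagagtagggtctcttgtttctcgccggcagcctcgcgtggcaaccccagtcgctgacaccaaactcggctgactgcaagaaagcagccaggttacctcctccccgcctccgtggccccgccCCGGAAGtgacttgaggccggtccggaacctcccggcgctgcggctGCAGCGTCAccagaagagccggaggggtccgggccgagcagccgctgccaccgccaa

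Both strands were searched for TGACNNNGC, the core of the antioxidant response element bound by NFE2L1 and its relatives, for CCAAT, the box bound by NF-Y, and for CCGGAAG, a form of the ETS family motif that was added after these windows had been seen. The windows of Psma5, Psmb4 and Psmc4 held none of the 3 motifs as written, and other forms of the ETS family motif were not searched for. That of Psme4 held CCGGAAG on the strand of the gene and TGACNNNGC on the other strand, and the matches do not overlap. Over the 45 windows of the member genes, TGACNNNGC was in 6 (13.3%), against 12.4% of all 32851 windows. CCAAT was in 15 (33.3%), against 37.4% of all windows. CCGGAAG, chosen after the windows had been seen, was in 16 (35.6%), against 8.86% of all windows. Its share among windows of other highly expressed genes was not taken. The difference is therefore not shown to be particular to proteasome genes. Of the 15 genes with CCGGAAG, Psme4 was the one that fell, and the others included Psmc1, Psmc2, Psmd2 and Psmd4.

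Gene expression was then compared between MUT_CTCF and WT_CTCF mESCs. Of the 52 rows, 48 passed the filter on low counts and were tested. With edgeR's quasi-likelihood test and Benjamini-Hochberg adjustment over all 16264 tested genes, 6 members fell at an adjusted p under 0.05 and 0 rose, where 1.61% of all tested genes fell and 1.56% rose (3.17% in all). Those that fell were Psma5, Psmb2, Psmb4, Psmc3, Psmc4 and Psme4. At an unadjusted p under 0.05, 14 members were lower and 0 were higher, against 7.65% and 7.61% of all tested genes. The study called a gene by a raw p under 0.05 together with a change of more than 2-fold, and 0 members met that, against 1.3% of all tested genes. DESeq2 called 2 members lower, Psma5 and Psmb4, and 0 higher. Of all 16264 tested genes it called 302, against 515 with edgeR's quasi-likelihood test.

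Across the set, 37 of the 48 tested members had a log2 fold change below 0 (34 with library size scaling), as had 49.2% of all tested genes. The median log2 fold change was -0.048 over the members and 0.0034 over all tested genes. In 26 of the 48 members both MUT_CTCF libraries lay below both WT_CTCF libraries, which held for 22.4% of all tested genes. In 3 members, Psmb10, Psme1 and Psmc3ip, both lay above, which held for 22.3% of all tested genes. Proteasome genes are well covered, so the same shares were taken among the 6461 tested genes with a mean of at least 1000 normalized counts. Of the 41 members among them, 6 fell, 0 rose and 34 had a value below 0, where 3.45% of such genes fell, 2.46% rose (5.91% in all) and 57.5% had a value below 0. Both MUT_CTCF libraries lay below both WT_CTCF libraries in 25 of these 41 members and above them in 2, against 31.7% and 20.1% of such genes.

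The calls were sensitive to single libraries and to the filter. Calls were lost whichever library was left out, and all 6 when a MUT_CTCF library was, fits in which no gene of the whole table passed. The median log2 fold change of the members was then -0.058 without MUT_CTCF replicate 1 and -0.042 without MUT_CTCF replicate 2. Over all tested genes it was -0.0014 and -0.00098 in those fits. Scaling by library size only left Psma5 and Psmb4 called, and testing without a filter on low counts left 0. Those 2 settings called 412 and 29 genes of the whole table, against 515 in the main fit.

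**Figure D1:**
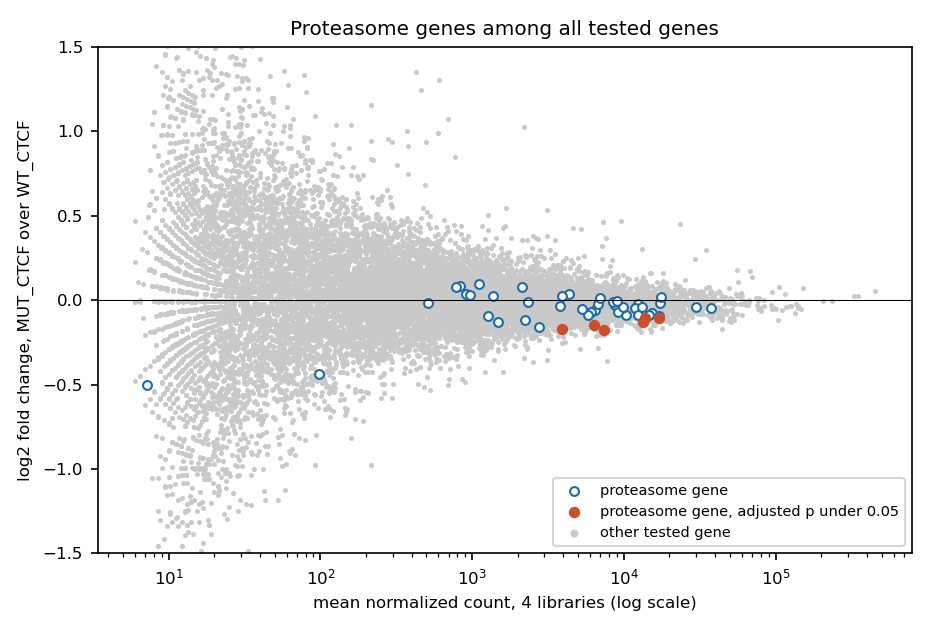
The log2 fold change of MUT_CTCF over WT_CTCF is plotted against the mean normalized count over 4 libraries (log scale) for all 16264 tested genes, with 143 genes beyond the plotted range of 1.5 in either direction. Most proteasome genes (circles) sit at the well-covered right side, just under 0, and the 6 with an adjusted p under 0.05 (filled) are all below 0.

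As a share of all counts, the 52 rows together took 0.984% and 0.979% in WT_CTCF replicates 1 and 2 and 0.954% and 0.950% in MUT_CTCF replicates 1 and 2. Both MUT_CTCF libraries were below both WT_CTCF libraries. With 2 against 2 libraries, an exact two-sided permutation test cannot give a p below 0.333, so none is given. The Psmb rows went from 0.182% and 0.178% to 0.172% and 0.171%, and the Psmc rows from 0.181% and 0.179% to 0.172% and 0.173%. The Psme rows overlapped between groups, at 0.0593% and 0.0628% against 0.0616% and 0.0603%.

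Among the alpha ring genes, 1 of 8 fell, 0 rose and 7 had a value below 0, with a median log2 fold change of -0.063 (-0.038 without MUT_CTCF replicate 2). Of all tested genes, 1.61% fell, 1.56% rose and 49.2% had a value below 0. Among those with a mean of at least 1000 normalized counts, 3.45% fell and 57.5% were below 0. Psma5 (ENSMUSG00000068749, chr3:108059844-108082892, plus strand, mm9) had the lowest value of the ring. Its normalized counts were 7849.5 and 7847.5 in WT_CTCF and 7144 and 6770.3 in MUT_CTCF. Both MUT_CTCF libraries were below the closely matched WT_CTCF pair, and the change was -0.17 (log2, SE 0.037, adjusted p = 0.0027), or -11.4%. Of the 50-base windows in its spliced transcripts, 56.6% also occur elsewhere in the genome, where reads of that length would not map uniquely. The authors had removed reads of fewer than 50 bases, and the share for longer reads was not taken. The exons of Psma5 share 60 bases with 1700010K24Rik. Psma6, with the highest value of the ring, had 7075 and 6784 counts in WT_CTCF and 6943 and 7045 in MUT_CTCF, overlapping groups with a log2 fold change of 0.013 (SE 0.038). The remaining alpha genes did not pass the test, at -0.056 for Psma1, -0.069 for Psma2, -0.088 for Psma3, -0.023 for Psma4 and -0.088 for Psma7. Copies elsewhere hold 29.4% of the windows of Psma3 and 33.9% of those of Psma4. Psma8, a paralog known from the testis-specific core of meiotic cells, was at 7.38 CPM per kb of exon in WT_CTCF, against 70.9 for Psma4 or 84.7 for Psma7, with a log2 fold change of -0.016 (SE 0.12).

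All 7 genes of the constitutive beta ring had a value below 0, 2 of them fell, and the median was -0.088. Over all tested genes, 49.2% had a value below 0 and 1.61% fell. With a mean of at least 1000 normalized counts, these shares were 57.5% and 3.45%. Psmb4 (ENSMUSG00000005779, chr3:94688015-94690883, minus strand, mm9) encodes a beta subunit without protease activity. It had 13969 and 13867 normalized counts in WT_CTCF and 12649 and 12847 in MUT_CTCF. Each pair was close together and the MUT_CTCF pair was lower, with a log2 fold change of -0.13 (SE 0.031, adjusted p = 0.00989, edgeR). Psmb2 (ENSMUSG00000028837, chr4:126354874-126386958, plus strand, mm9), another structural beta subunit, had 6839 and 6484 counts in WT_CTCF against 6088 and 5964 in MUT_CTCF. Its 4 values did not overlap between groups, and it fell by 0.14 on the log2 scale (SE 0.040, adjusted p = 0.0281, edgeR). Psmb1 and Psmb3, the other beta genes without a protease site, were at -0.048 and -0.075, both with no overlap between groups and neither past the threshold. Psmb3 has the largest share of 50-base windows found elsewhere in the genome of any member, 63.5%.

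The 3 catalytic beta genes did not pass the test. Psmb5, whose product carries the chymotrypsin-like site, had 2948 and 2857 normalized counts in WT_CTCF and 2559.6 and 2643 in MUT_CTCF. Its groups did not overlap, and its log2 fold change of -0.16 was the lowest of the ring, with an SE of 0.055 and an adjusted p of 0.107 (edgeR). Copies elsewhere in the genome hold 56.8% of its 50-base windows. Psmb6, the caspase-like subunit, had 15474 and 14952 counts in WT_CTCF and 14395 and 14229 in MUT_CTCF, also without overlap, at -0.088 (SE 0.030, adjusted p = 0.105, edgeR). Psmb7, the trypsin-like subunit, had 9066.5 and 8510.0 against 8691 and 8559, which overlapped, and the highest value of the ring at -0.027 (SE 0.036).

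The interferon-inducible subunits replace these 3 catalytic subunits in the immunoproteasome, and the thymus has a subunit of its own. Psmb10, which replaces Psmb7, had 838 and 783 normalized counts in WT_CTCF and 854.5 and 861 in MUT_CTCF. Both MUT_CTCF values were above both WT_CTCF values, at 0.082 (SE 0.092, adjusted p = 0.758, edgeR), within the error. Psmb8, which replaces Psmb5, had raw counts of only 13 and 4 in WT_CTCF and 11 and 1 in MUT_CTCF, and its log2 fold change of -0.50 (SE 0.95) is within its error. Psmb11, the thymus subunit, had 1 count in WT_CTCF replicate 1 and 0 in the other 3 libraries, where 3 counts would be at most 0.0740 CPM. Psmb9, which replaces Psmb6, has 2 rows, both at 0 in every library. These rows share 3647 exon bases of 3648 and 3659, so nearly any read would overlap both and be left out as ambiguous under the default of HTSeq. The counting mode is not given in the sources used here, and the zeros say nothing of its expression. In the same way the second Psmd14 row lies inside the first with all its 338 exon bases and had 0 counts.

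All 6 base ATPases had a value below 0, although Psmc2 was at 0.0016 with library size scaling, 2 fell, and the median was -0.10. Over all tested genes, 49.2% were below 0 and 1.61% fell. With a mean of at least 1000 normalized counts, it was 57.5% and 3.45%. Psmc3 (ENSMUSG00000002102, chr2:90894166-90906526, plus strand, mm9) had 18028 and 17138 normalized counts in WT_CTCF and 15956 and 16687 in MUT_CTCF. The higher MUT_CTCF value was below the lower WT_CTCF value, and the log2 fold change was -0.11 (SE 0.030, adjusted p = 0.0325, edgeR), with 215 exon bases shared with Slc39a13 on the other strand. Psmc4 (ENSMUSG00000030603, chr7:28826726-28835120, minus strand, mm9) had 14309 and 14344 counts in WT_CTCF against 12876 and 13736 in MUT_CTCF. The WT_CTCF pair agreed closely and the MUT_CTCF pair was spread below it, giving a fall of 0.11 on the log2 scale (SE 0.032, adjusted p = 0.0453, edgeR). Psmc5, the ATPase gene with the highest level, was just outside the threshold at -0.095 (SE 0.029, adjusted p = 0.0543, edgeR). Psmc6 had 2245 and 2414 counts against 2245 and 2039.7, and the lowest value of the base at -0.12 (SE 0.062, adjusted p = 0.345, edgeR). Psmc2 had 8549 and 8581 counts in WT_CTCF and 8601 and 8401 in MUT_CTCF, overlapping groups at -0.011 (SE 0.035), and Psmc1 was at -0.025.

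**Figure D2:**
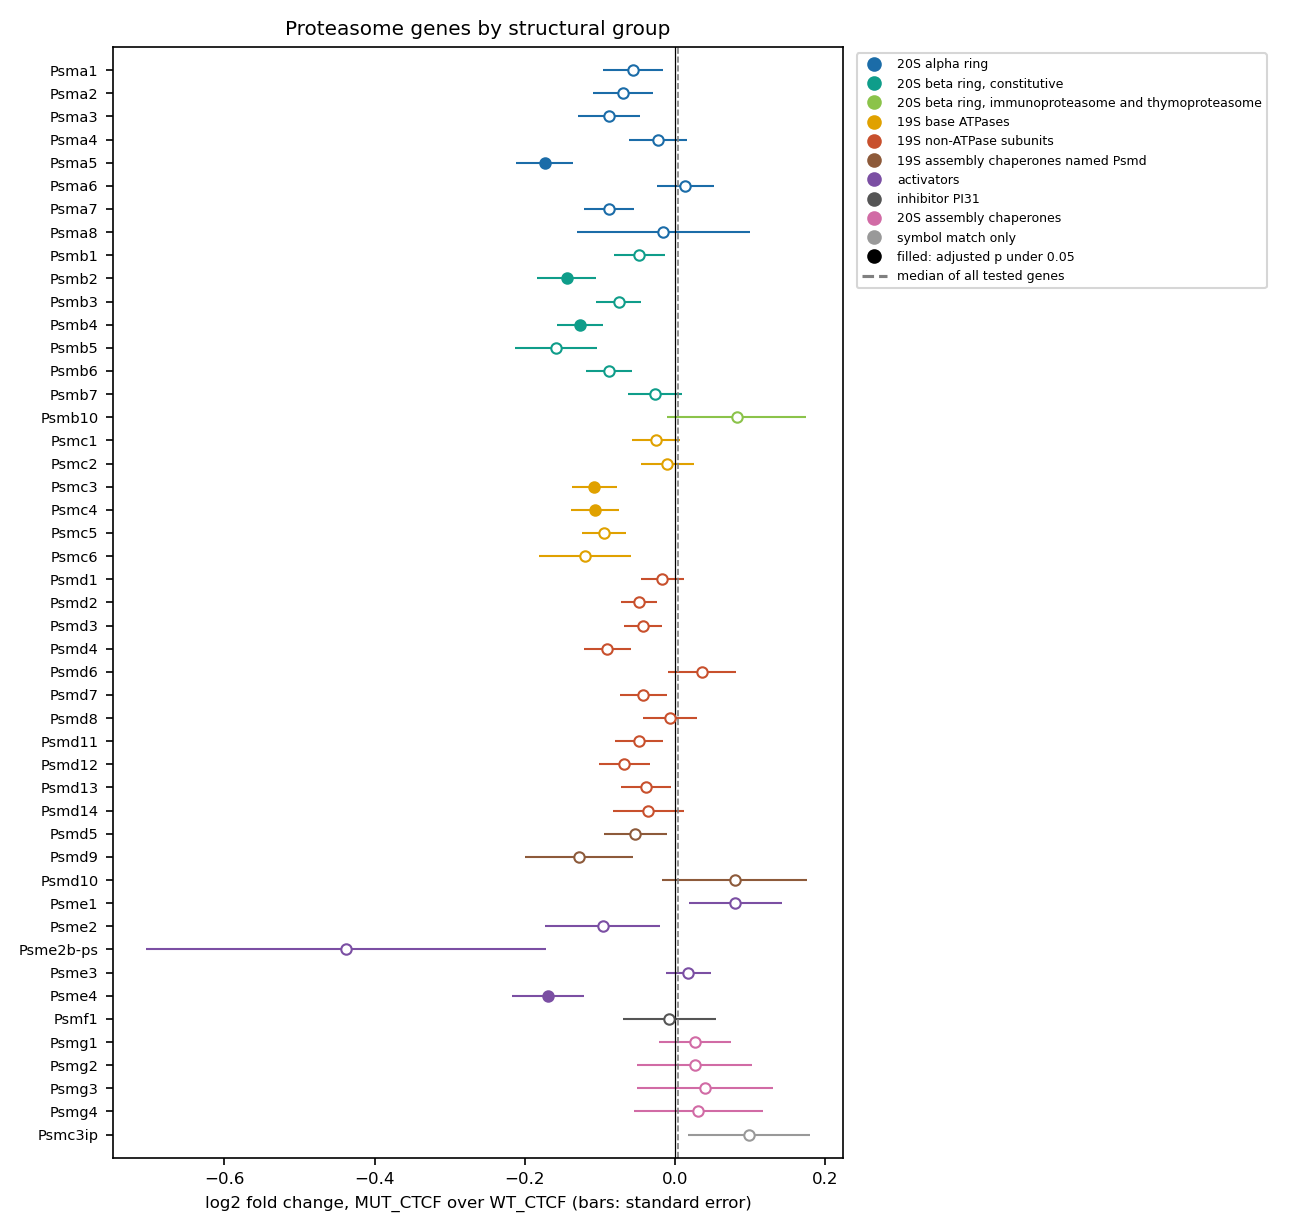
The log2 fold change of MUT_CTCF over WT_CTCF (horizontal axis) is given with its standard error for 47 tested proteasome genes, colored by structural group, with the median of all tested genes as a dashed line at 0.0034. Psmb8 is not drawn because its standard error is 0.95. The core and base ATPase genes sit mostly left of the dashed line, and the Psmg genes sit right of it.

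Of the 11 tested non-ATPase subunit genes of the cap, 0 passed the threshold with edgeR or DESeq2, 2 were lower at an unadjusted p under 0.05, and 10 had a value below 0, with a median of -0.042. Psmd8, among these 10, was at 0.0061 with library size scaling. Of all tested genes, 7.65% were lower at an unadjusted p under 0.05 and 49.2% had a value below 0. Psmd4, a ubiquitin receptor, had 13061 and 12696 normalized counts in WT_CTCF and 12064 and 12133 in MUT_CTCF. These groups did not overlap, and Psmd4 had the lowest value of the group at -0.090 (SE 0.032, adjusted p = 0.113, edgeR). Psmd2, the scaffold that docks ubiquitin shuttle factors, had 38204 and 37972 counts against 36396 and 37267, at -0.048 (SE 0.024, adjusted p = 0.325, edgeR), with 24.9% of its windows found elsewhere. Psmd14, the deubiquitinase that strips the chain from the substrate, had 3776 and 3925 against 3722 and 3792, overlapping groups at -0.036 (SE 0.048). Psmd6 was the one with a value above 0, with 4274 and 4318 counts in WT_CTCF and 4539 and 4267 in MUT_CTCF, at 0.036 (SE 0.046). The other subunits were at -0.017 for Psmd1, -0.043 for Psmd3, -0.042 for Psmd7, -0.0064 for Psmd8, -0.048 for Psmd11, -0.067 for Psmd12 and -0.039 for Psmd13.

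The core and cap subunit genes, without the immunoproteasome and thymus ones, were also taken as 1 set. It includes Psma8, the paralog known from meiotic cells, at -0.016. In this set 30 of 32 tested genes had a value below 0 (all but Psma6 and Psmd6, and not Psmc2 or Psmd8 with library size scaling). Of these 32 genes, 5 fell and 0 rose, and in 21 both MUT_CTCF libraries were below both WT_CTCF libraries. Their median log2 fold change was -0.052. Of all tested genes, 49.2% had a value below 0, 1.61% fell, 1.56% rose and 22.4% had both MUT_CTCF libraries below. Among genes with a mean of at least 1000 normalized counts these shares were 57.5%, 3.45%, 2.46% and 31.7%. Of the 11 members with a value above 0, all but Psma6 and Psmd6 lie outside this set.

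Of all tested genes 1.61% fell, and of the 5 tested activators 1 did, Psme4. It encodes PA200, a single large protein that caps the core without ATP (ENSMUSG00000040850, chr11:30671726-30780361, plus strand, mm9). It had 3983 and 4271 normalized counts in WT_CTCF and 3751 and 3588 in MUT_CTCF. Both MUT_CTCF libraries were below both WT_CTCF libraries, with a log2 fold change of -0.17 (SE 0.048, adjusted p = 0.0347, edgeR), or -11.1%. Psme1 and Psme2, which form the interferon-inducible PA28 ring, lay on opposite sides of 0. Psme1 had 2051 and 2072 counts in WT_CTCF and 2280.1 and 2077 in MUT_CTCF, so that MUT_CTCF replicate 1 alone was clearly higher, at 0.080 (SE 0.062). Psme2 had 1265 and 1366 against 1223 and 1238, at -0.096 (SE 0.076), with 54.9% of its windows found elsewhere in the genome. Psme3, the nuclear PA28 subunit, had 16921 and 17862 counts against 17643 and 17568, within the WT_CTCF range, at 0.018 (SE 0.029). Psme2b-ps had 104 and 120.3 against 89.2 and 76.4, the lowest value of the group at -0.44 (SE 0.27, adjusted p = 0.463, edgeR), with 30.3% of its windows found elsewhere.

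**Figure D3:**
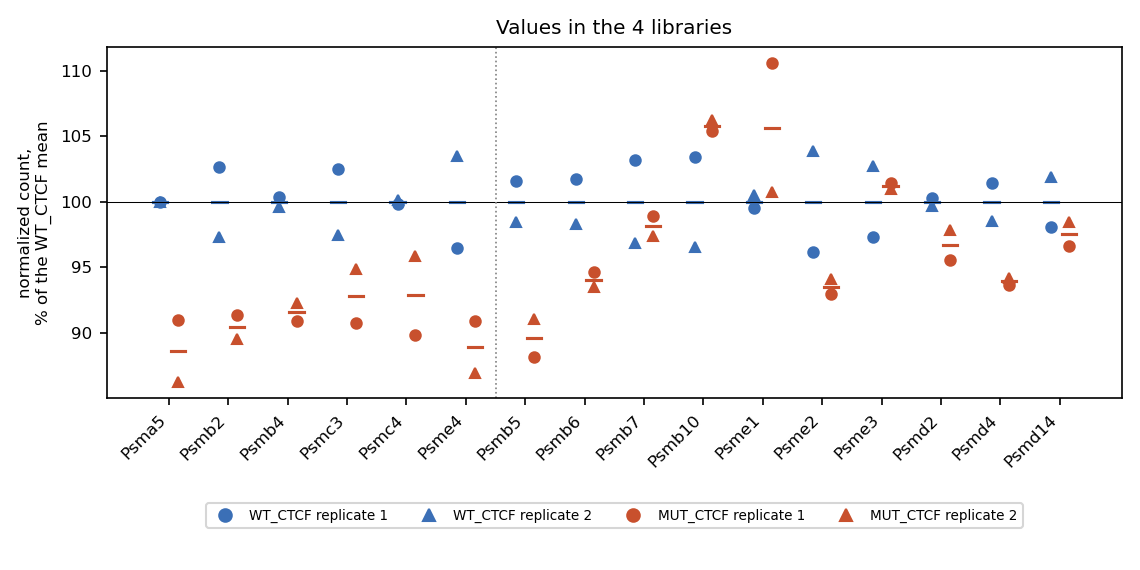
Normalized counts in each library are given as a percent of the WT_CTCF mean of that gene, with blue for WT_CTCF, red for MUT_CTCF, circles for replicate 1, triangles for replicate 2 and short lines for group means. The 6 genes left of the dotted line fell at an adjusted p under 0.05, and so were picked by a test on these same 4 libraries. In each, both MUT_CTCF libraries lie below both WT_CTCF libraries, as in 22.4% of all tested genes. Among tested genes with a mean of at least 1000 normalized counts this share is 31.7%. Psmb7, Psme3 and Psmd14 overlap.

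The genes that assemble or restrain the proteasome did not pass the test. The 4 Psmg genes, chaperones that pair up to build the alpha ring, all had values above 0, with a median of 0.029, and in none of them were the groups apart. Each of the 4 was below 0 when 1 library was left out. Psmg3 had the highest, with 827 and 962 normalized counts in WT_CTCF and 919 and 920.4 in MUT_CTCF, at 0.040 (SE 0.090). Psmg2 had the lowest, with 1249 and 1463 against 1395 and 1367, at 0.026 (SE 0.076). Psmg1 was at 0.026 and Psmg4 at 0.031, so the spread between WT_CTCF libraries exceeded the differences. Among the chaperones of the cap base, Psmd9 had 1559.5 and 1526 counts against 1342 and 1481, at -0.13 (SE 0.072), and Psmd10, known as gankyrin, had 813 and 708 against 784 and 823, at 0.079 (SE 0.096). Psmd5 was at -0.053. Psmf1, which encodes the inhibitor PI31, was at -0.0081 (SE 0.062). Psmc3ip, no proteasome gene, was at 0.098 (SE 0.082).

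Levels were compared between genes as CPM per kb of exon. By this length Psmc5 had the highest level of all members in WT_CTCF, at 308.8 ± 2.50 (SD, n = 2), followed by Psmb4 at 246 ± 1.29, Psmb1 at 235 ± 2.12 and Psmd2 at 231 ± 0.994. Psmb1 and Psmd2 differ by little more than these spreads. This order depends on the length used. Per kb of coding length, the genes above Psmc5 (353) included Psmb3 (625), Psme3 (509) and Psmd3 (448). Per kb of the longest transcript, Psmb6 (386) and Psmd2 (311) were above Psmc5 (308.8). Products that enter the same ring in equal number had unequal RNA levels. Within the constitutive beta ring the highest level, that of Psmb4, was 3.19 times that of Psmb5, the lowest, and within the base ATPases Psmc5 was 11.8 times Psmc6. These ratios came to 7.24 and 7.23 with the coding length in place of the exons, with Psmb3 in place of Psmb4 as the highest beta gene. Since only uniquely mapped reads were counted, these levels were taken with 56.8% of the windows of Psmb5 and 63.5% of those of Psmb3 found elsewhere in the genome, against 0 for Psmb4, and the part of this in the ratios was not tested. Among the activators, Psme3 was at 145 ± 5.53 and Psme4 at 12.1 ± 0.595. Psmb10 was at 15.6 ± 0.757 and Psmb8 at 0.0763 ± 0.0571, so the immunoproteasome subunits that could be measured were far below the constitutive ones. Psmg1, the highest of its group at 70.6 ± 2.73, was below the median of the beta ring at 177.

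**Figure D4:**
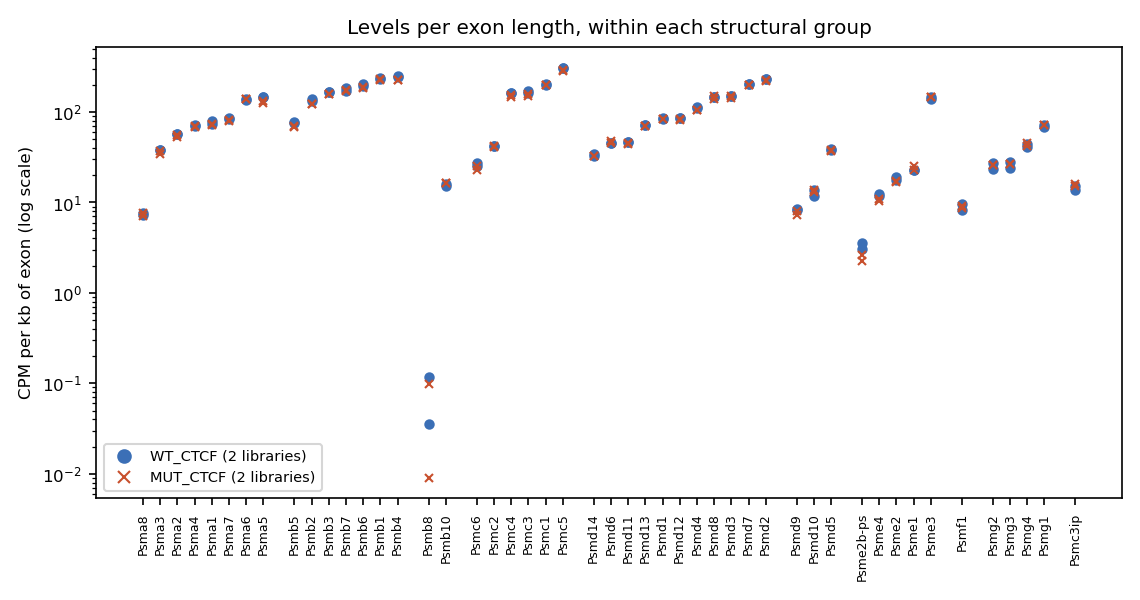
The level of each tested proteasome gene is plotted as CPM per kb of exon (log scale), ordered within structural groups, with both libraries of WT_CTCF (blue circles) and MUT_CTCF (red crosses). The points of a gene nearly coincide except for Psmb8, and the genes of a ring differ among themselves by far more than the groups do.

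Genes that work with the proteasome were counted from lists in the same fit. Of all tested genes, 1.61% fell and 1.56% rose, and 7.65% were lower and 7.61% higher at an unadjusted p under 0.05. Of 13 tested partners outside the symbol rule, 0 passed with edgeR, 9 had a value below 0 and the median was -0.10, with 4 lower and 0 higher at an unadjusted p under 0.05 and 0 called by DESeq2. Adrm1, a ubiquitin receptor of the cap, was at -0.10 (adjusted p = 0.0571, edgeR). Shfm1, a small cap subunit also named Sem1, was at -0.17 (adjusted p = 0.251, edgeR). Pomp, the core maturation factor, was at -0.14 (adjusted p = 0.107, edgeR). The 4 partners above 0 were Usp14 at 0.0088, Akirin2 at 0.013, Ube3c at 0.027 and Zfand5 at 0.034.

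Of 14 regulators of proteasome gene transcription, 1 rose and 1 fell, where 1.56% of all tested genes rose and 1.61% fell. Maff, a small MAF partner of NFE2L1, had 168 and 208 normalized counts in WT_CTCF and 268 and 295 in MUT_CTCF, at 0.58 (SE 0.17, adjusted p = 0.0405, edgeR). Ngly1, the glycanase that processes NFE2L1, had 188 and 218 counts in WT_CTCF and 132 and 98.5 in MUT_CTCF, without overlap. It was at -0.82 (SE 0.21, adjusted p = 0.0158, edgeR), and its exons overlap those of Oxsm. Neither gene was called by DESeq2, but each had an adjusted p in only 10 of the 11 alternative settings. A missing DESeq2 value cannot be told here from a failed call. Nfe2l1 and Ddi2, the protease that activates its product, were picked for their role after their values had been seen. Nfe2l1 had 18822 and 18671 counts against 20106 and 19362, at 0.074 (SE 0.028, adjusted p = 0.159, edgeR), and Ddi2 was at -0.092 (adjusted p = 0.368, edgeR).

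For the remaining lists, 3.17% of all tested genes were called in either direction. Among tested genes with a mean of at least 1000 normalized counts it was 5.91%. Of 10 ubiquitin precursor and ubiquitin-activating or conjugating genes, Rps27a, a ribosomal protein fused to ubiquitin, fell by 0.11 on the log2 scale (adjusted p = 0.0038, edgeR). Of 14 genes of p97 and shuttle factors, Vcp, which encodes p97 itself, fell by 0.090 (adjusted p = 0.0465, edgeR) and the median was 0.0038. Of 15 antigen processing partners of the immunoproteasome, H2-K1, a class I major histocompatibility gene with close paralogs, rose by 0.26 (adjusted p = 0.00145, edgeR). Tap1, which shares exon bases with both Psmb9 rows, was at 0.034. The 11 autophagy receptor and ATG8 genes had a median of -0.081, lower than that of the proteasome members. At an unadjusted p under 0.05, 6 were lower and 0 higher, against 7.65% and 7.61% of all tested genes. Of the 11 autophagy genes, the receptors Tax1bp1 and Sqstm1 fell by 0.33 and 0.11 (adjusted p = 0.0115 and 0.0170, edgeR).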

How the data were processed

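RNA was sequenced from 2 WT_CTCF and 2 MUT_CTCF mESC libraries. The authors trimmed reads with Trim Galore 0.4.4, aligned them to mm9 with STAR at default settings, and deposited raw counts of uniquely mapped reads per gene from HTSeq 0.9.1 (a version given in the submitters' processing notes). The annotation release and the strand setting of the counting are not given in the sources used here. A deposited table of the authors' own comparison, with fold changes, mean expression and p-values, was not used.

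Gene names, lengths and places came from GENCODE M1 on NCBIM37 (mm9), which named 37205 of 37620 rows. Library totals were 40524694 to 40977464 counts, at which 3 counts are at most 0.0740 CPM, for counting error only. Genes passing filterByExpr of edgeR (minimum 10 counts) were scaled by TMM and tested with glmQLFit and glmQLFTest in edgeR 4.0.16 (R 4.3.3), with condition as the only term and Benjamini-Hochberg adjustment over all 16264 tested genes. The script was tested on simulated data. Normalized counts are CPM on TMM-scaled libraries times the mean library size. The SE was taken from the log2 fold change and the square root of its F value. Levels per length are CPM per kb of the union of exons.

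Members and lists were chosen with earlier results of these data known, so no list was tested as a set. Every member is given with its log2 fold change. Values per library are given for members past the threshold, the catalytic subunits, Psme1 to Psme4, Psmd2, Psmd4, Psmd14, and the highest and lowest member of each structural group. Members past the threshold are named from the other lists. Adrm1, Shfm1, Pomp, Tap1, Usp14, Akirin2, Ube3c and Zfand5 were added after their values were seen. The partner list holds Hspb11, which is not known as a proteasome partner, and 5 listed symbols (Ecm29, Ecpas, Paaf1, Sem1 and Ufd1) have no row under that name. A member of the ubiquitin list is not reported here and was left out of its counts. Copies were counted as 50-base windows of the spliced protein-coding transcripts with an exact match elsewhere in the genome. Longer reads were not examined in this way. Replicates differed by more than counting noise (chi-square per degree of freedom 3.61 and 4.27), so none was counted as a duplicate. Alternatives were other scalings, filters and tests (DESeq2 1.42.0, edgeR's exact test), a replicate block and leaving out each library.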

Additional observations from a re-analysis of the deposited data

How the results depend on the processing

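The 6 lower calls became 2 with library size only and with DESeq2, 4 with edgeR's exact test, 0 without a filter on low counts, and 0 by the study's own rule of a raw p under 0.05 and more than a 2-fold change. They became 7, adding Psmc5, with at least 10 counts in every library. Leaving out 1 library gave 0 to 3 calls. A fit with 1 library in a group assumes that it varies like the other group. No setting called a member higher. Over the whole table, 515 genes were called in the main fit, 412 with library size only and 302 with DESeq2. The exact test called 517 genes, and the filter of at least 10 counts in every library 588. Without the filter 29 genes were called in all, and 2189 at an unadjusted p under 0.05. In the fits without a MUT_CTCF library 0 were called and 1651 and 1585 had an unadjusted p under 0.05.

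The median over members was -0.036 with library size only, when that of all tested genes rose from 0.0034 to 0.016, and -0.058 to -0.042 when 1 library was left out. The non-ATPase median was -0.030 with library size only. Leaving out 1 library gave medians of -0.072 to -0.038 for the alpha ring, -0.15 to -0.041 for the activators, 9.3e-05 to 0.067 for the Psmg genes, -0.11 to -0.076 for the constitutive beta ring, -0.086 to -0.068 for the base ATPases and -0.047 to -0.032 for the non-ATPase subunits. The cause was not tested. With coding length the level ratios were 7.24 (beta ring) and 7.23 (ATPases).

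Partners had 1 lower call with at least 10 counts in every library. Without a filter every related-list call was lost, giving 0. With DESeq2 0 regulators were called in either direction, although its adjusted p-values for Maff and Ngly1 may be missing. With library size only and with the exact test 0 of the p97 list was lower. Leaving out 1 library gave 0 to 1 regulators higher and 0 to 1 lower, 0 to 1 ubiquitin genes lower, 0 of the p97 list lower, 0 to 1 antigen processing genes higher and 0 autophagy genes lower.

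Same-numbered replicates did not deviate together (correlation -0.020), so the numbers are not treated as pairs. With a replicate block, 7 members were lower (adding Psmc5), 1 partner was lower, 2 regulators were lower, and 698 genes were called against 515.

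Signs of small changes turned. With library size only Psmc2 was at 0.0016, Psmd8 at 0.0061 and Psmf1 at 0.0042. Leaving out 1 library gave -0.018 to 0.044 for Psma6, -0.066 to 0.031 for Psma8, -0.073 to 0.019 for Psmb7, -2.93 to 0.56 for Psmb8, -0.028 to 0.0047 for Psmc2, -0.0096 to 0.078 for Psmd6, -0.058 to 0.042 for Psmd8. It gave -0.018 to 0.18 for Psmd10, -0.021 to 0.056 for Psme3, -0.11 to 0.097 for Psmf1, -0.014 to 0.066 for Psmg1, -0.084 to 0.14 for Psmg2, -0.066 to 0.15 for Psmg3 and -0.021 to 0.080 for Psmg4. None of these genes passed the threshold under any setting.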
